A study of Mus musculus with 8 samples.

Results

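The Hox genes were taken from the count table by their names, as every gene called Hoxa, Hoxb, Hoxc or Hoxd followed by its paralog number. There were 39 of them among 55536 genes, 11 in the HoxA, 10 in the HoxB, 9 in the HoxC and 9 in the HoxD cluster, by a rule that reads only the gene name. RNA came from samples named as MIN6, an insulin-producing line from a mouse pancreatic β-cell tumour, with the genotype labelled WT. The extraction text speaks of islets, which also hold stromal and endothelial cells, and the sample names are followed here. Polyadenylated RNA was sequenced 48 h after transfection using Lipofectamine 3000, which delivers plasmids in lipid particles. The 4 control libraries came from cells given the empty vector pcDNA 3, and the 4 Klf4 libraries from cells given pGloMyc-Klf4, from which the zinc finger factor Klf4 is made. Plasmid-derived and endogenous Klf4 reads cannot be told apart here. Libraries 1 and 2 of each group formed batch 1 and libraries 3 and 4 formed batch 2. By their names the plasmids differ in backbone, so backbone and Klf4 changed together. Unless cells that took up plasmid were selected, each library pooled them with cells that did not.

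Hox genes encode homeodomain transcription factors that give cells their position along the head-to-tail axis of the embryo and along the limbs. They lie in 4 clusters in which the order of the genes follows the order of the body regions they pattern, from anterior genes of low number at the 3′ end to posterior genes of high number at the 5′ end. Genes with the same number in different clusters are paralogs. Where a cluster is not used, its chromatin is typically held silent by Polycomb complexes, and Trithorax (MLL) complexes oppose that silencing. The endocrine pancreas arises from foregut endoderm and depends on Pdx1, a factor of the related ParaHox group.

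Total counts were between 45417853 and 52731176 per library, so a read corresponded to about the same share of every library. Klf4 itself, which checks the labels, had between 1743 and 2060 reads in the control libraries and between 205171 and 308667 in the Klf4 libraries. The marker genes of β cells were abundant in every library, as the label of the line states: the summed level of 10 of them spanned 25318 to 32090 CPM (counts scaled to library size) over control and 23641 to 32340 CPM over Klf4 libraries, and the sums overlapped between groups. Of the 10, 5 were lower (15.5% of all genes tested were) and 5 did not pass the threshold. The zinc transporter gene Slc30a8 (log2 fold change -0.22, SE 0.03), the insulin gene activator Mafa (-0.18, SE 0.04) and G6pc2 (-0.13, SE 0.03) had the largest changes, with edgeR adjusted p-values of 5.23e-07, 0.00066 and 0.00151. Mafa differed between batches, at -0.06 in batch 1 and -0.29 in batch 2 (edgeR interaction adjusted p 0.00817), and was not called without the batch term (adjusted p 0.365). Nothing in the labels says that the libraries of a group came from separately grown cultures, although the design text calls them biological replicates, so the errors given here measure the spread between these libraries.

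The Hox genes of all 4 clusters were close to silent in control cells and gave low but reproducible reads after Klf4 transfection. Summed over the 39 genes, the control libraries held 9, 18, 3 and 2 reads and the Klf4 libraries 232, 169, 221 and 260. The lowest Klf4 library (169) was far above the highest control library (18), and the groups did not overlap in any cluster. Their summed level averaged 0.166 ± 0.151 CPM in control and 4.34 ± 0.502 CPM in Klf4 cells (SD, n = 4), and it was 4.11 CPM in batch 1 and 4.56 CPM in batch 2 of the Klf4 group. The ratio of the pooled reads was 26.3 (exact 95% interval 18.5 to 38.7, for counting error only). In control, the level was 0.191 and 0.37 CPM in the batch 1 libraries and 0.0608 and 0.0414 CPM in those of batch 2. The ratio thus differed between batches, which this interval does not cover. Of the 39 genes, 32 had no read in any control library, and 35 had a read in at least 1 Klf4 library. A control library showed reads from 1 to 5 Hox genes, and a Klf4 library from 23 to 26. In a bulk library, more cells with a transcript and more transcript per cell cannot be told apart.

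**Figure D1:**
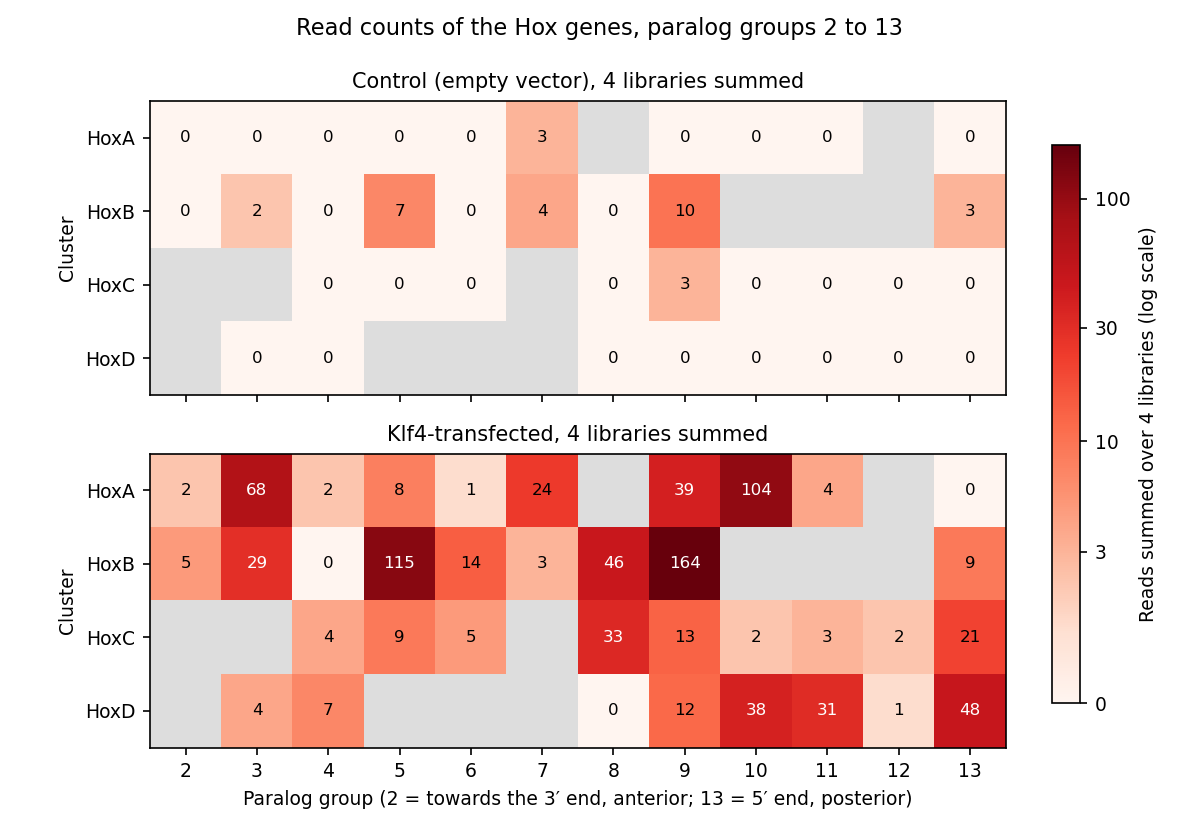
Reads of each Hox gene of paralog groups 2 to 13 summed over the 4 control libraries (top) and the 4 Klf4 libraries (bottom), arranged by cluster (rows) and paralog group (columns), with the colour on a log scale and grey where the mouse has no gene. Control cells show at most 10 reads for any gene plotted, and Klf4 cells show up to 164, with both well-read and unread genes in the HoxA, HoxB and HoxD clusters.

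Where the groups of a gene did not overlap, every Klf4 library lay above every control library in CPM. This held for 14 of the 39 Hox genes, 11 of which had no read in control. Over all genes of the table the same held for 7.01%, and over all genes with at most 3 reads in every control library for 2.7%. Because most Hox genes started from nothing, protein-coding genes with at most 3 reads in every control library are the nearer background. Of the 6253 such genes 9.05% separated in this direction, against 12 of the 36 Hox genes that met that limit (33.3%). The 6253 are a mixed set. They include 1426 olfactory, vomeronasal and trace amine receptor genes (0.14% separated) and 48 genes of other developmental transcription factors (45.8%). With no read allowed in control, the shares were 5.61% of 4545 protein-coding genes and 11 of 32 Hox genes (34.4%). In the same sets, 3.15% of the protein-coding genes and 7 of the 32 Hox genes (21.9%) had more than 3 reads in every Klf4 library, and 24.1% against 28 of 32 (87.5%) had any read in that group. Within batch 1 alone 17 of the 39 separated (all genes 14.3%), and within batch 2 alone 20 did (all genes also 14.3%).

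The separated genes lie in all 4 clusters, 3 in HoxA, 5 in HoxB, 3 in HoxC and 3 in HoxD. The promoter windows below belong to separated genes of 3 clusters and to a pair of genes without reads, and are shown so that the starts of read and unread genes can be compared. Each is the run of 250 bases just before the RefSeq start site in GRCm38.p6, 5′ to 3′ on the strand of the gene, free of any exon of the GENCODE M21 annotation. Capitals mark the letters GGGNGTGG on either strand, a core of the sites that Klf4 is known to bind.
Hoxa10, first start (chr6:52240855-52241104, minus strand): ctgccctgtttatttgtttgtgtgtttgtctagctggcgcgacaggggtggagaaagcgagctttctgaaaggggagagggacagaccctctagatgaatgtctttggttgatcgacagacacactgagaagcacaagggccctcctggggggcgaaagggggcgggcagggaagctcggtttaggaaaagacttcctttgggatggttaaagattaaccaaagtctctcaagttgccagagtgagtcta
Hoxa10, second start (chr6:52234940-52235189, minus strand): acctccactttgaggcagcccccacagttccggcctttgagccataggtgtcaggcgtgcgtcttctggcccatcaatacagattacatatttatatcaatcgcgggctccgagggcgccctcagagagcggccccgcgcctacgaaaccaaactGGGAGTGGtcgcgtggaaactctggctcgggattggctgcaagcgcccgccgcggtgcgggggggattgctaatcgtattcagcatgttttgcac
Hoxd13 (chr2:74667975-74668224, plus strand): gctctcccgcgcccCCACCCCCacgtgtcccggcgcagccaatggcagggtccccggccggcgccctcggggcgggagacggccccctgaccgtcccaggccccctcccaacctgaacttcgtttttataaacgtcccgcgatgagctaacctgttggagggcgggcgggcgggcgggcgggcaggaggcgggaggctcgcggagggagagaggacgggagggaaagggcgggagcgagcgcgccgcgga
Hoxb8 (chr11:96281655-96281904, plus strand): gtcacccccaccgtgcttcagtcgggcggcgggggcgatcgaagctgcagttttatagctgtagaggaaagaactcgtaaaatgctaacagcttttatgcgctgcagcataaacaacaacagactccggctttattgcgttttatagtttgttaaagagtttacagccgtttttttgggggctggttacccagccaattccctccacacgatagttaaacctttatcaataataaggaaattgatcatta
Hoxa13 (chr6:52260881-52261130, minus strand): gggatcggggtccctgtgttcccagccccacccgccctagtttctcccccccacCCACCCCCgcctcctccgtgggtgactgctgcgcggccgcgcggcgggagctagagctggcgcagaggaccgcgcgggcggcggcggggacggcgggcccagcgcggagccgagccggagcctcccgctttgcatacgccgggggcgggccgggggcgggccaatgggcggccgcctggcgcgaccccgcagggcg
Hoxb4 (chr11:96318017-96318266, plus strand): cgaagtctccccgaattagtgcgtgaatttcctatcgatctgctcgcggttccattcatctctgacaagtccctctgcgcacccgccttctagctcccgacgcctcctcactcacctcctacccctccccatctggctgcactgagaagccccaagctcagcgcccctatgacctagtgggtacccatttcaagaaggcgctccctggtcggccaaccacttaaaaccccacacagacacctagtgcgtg
The letters occurred once before the second start of Hoxa10 and once before Hoxd13, both of which were read in every Klf4 library, and once before Hoxa13, which had no read in any library. They did not occur before the first start of Hoxa10 or in the windows shown for Hoxb8 and Hoxb4. RefSeq gave 24 start sites for 22 of the Hox genes, and 6 of these windows held the letters, against 15.9% of all 32851 windows of this length. Those not shown precede Hoxd12, Hoxa2 and Hoxb1, which had 1, 2 and 0 reads pooled over the Klf4 libraries. No window of the separated genes Hoxa3, Hoxa9, Hoxd10 and Hoxd11 held the letters. The windows with the letters thus lay before both read genes and genes with few or no reads. The shorter letters CACCC, searched on both strands and able to overlap the longer motif, were in 15 of the 24 Hox windows and in 52% of all windows. The Hox windows had a median GC content of 58.6%, against 52.4% over all windows, and 14 of the 24 were free of annotated exons. The shares were not adjusted for either, so they cannot tell whether the letters are in excess at Hox genes. A match describes the letters only and says nothing of binding.

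The HoxB cluster, on chromosome 11 from 96194316 to 96368256 (GRCm38), gave the most reads, 385 of the 882 in the Klf4 group (43.7%). It was also the cluster with most of the control reads, 26 of 32. Its summed level averaged 0.134 ± 0.121 CPM over control and 1.9 ± 0.353 CPM over Klf4 libraries (SD, n = 4). Hoxb9 (ENSMUSG00000020875, 96271457 to 96276595, plus strand), which helps to pattern the thoracic skeleton, was the most read Hox gene in either group. It had 1, 5, 3 and 1 reads in control libraries and 46, 36, 31 and 51 in Klf4 libraries. All 4 Klf4 libraries were far above the highest control library. Its level rose from 0.0514 ± 0.039 to 0.81 ± 0.163 CPM (SD, n = 4), a log2 fold change of 3.91 (SE 0.43) with an adjusted p of 1.3e-07 in edgeR's quasi-likelihood test with a batch term, Benjamini-Hochberg adjusted over 18266 genes. Of all genes tested, 21.1% were called higher. Hoxb9 passed the count filter through the Klf4 libraries alone, so that its call cannot be weighed against this share. Within batches 1 and 2 the log2 fold change was 3.69 and 4.18.

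Hoxb5 (ENSMUSG00000038700, 96303336 to 96306121, plus strand), a central gene of the same cluster, had 0, 7, 0 and 0 reads in control libraries and 33, 21, 22 and 39 in Klf4 libraries. The groups did not overlap, and all control reads came from 1 library of batch 1. Mean levels were 0.0359 ± 0.0719 CPM for control and 0.565 ± 0.15 CPM for Klf4 cells (SD, n = 4), with a fitted log2 difference of 3.90 (SE 0.63, adjusted p 2.96e-05 in edgeR). Without control replicate 2 the fitted value was 7.82, a figure that then rests on edgeR's prior count because no control read was left. The same library sets the values within batches, 2.88 in batch 1 and 7.89 in batch 2. The difference between batches did not pass the threshold (edgeR interaction test, adjusted p 0.352).

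Further along HoxB, Hoxb8, known for its role in blood progenitors and microglia, had no control read and 17, 9, 10 and 10 reads in Klf4 libraries. Pooled over libraries these were at least 14.7-fold higher than a floor of 3 reads over the control group, a limit that corresponds to 0.0155 CPM. Hoxb3, a gene of the hindbrain and pharyngeal arches, went from 0, 1, 0 and 1 reads to 7, 6, 8 and 8, which made it the most even of the separated genes across Klf4 libraries (0.143 ± 0.0104 CPM, SD, n = 4). The ratio of its pooled reads was 13.9 (exact 95% interval 3.51 to 119.8). The central gene Hoxb6 had no control read and 1, 3, 7 and 3 reads in Klf4 libraries, with only Klf4 replicate 3 above 3 reads. At the ends of the cluster Hoxb1 had no read in any library, and Hoxb13, a gene of the tail bud and prostate, had 1, 2, 0 and 0 reads in control and 2, 2, 0 and 5 in Klf4 libraries, so that the groups overlapped. Hoxb4 had no read at all, although its neighbours Hoxb5 and Hoxb3 were both read in every Klf4 library. Hoxb7 was the only Hox gene with fewer pooled reads after Klf4, 3 against 4, a difference that these counts cannot resolve (ratio 0.717, exact 95% interval 0.105 to 4.24).

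**Figure D2:**
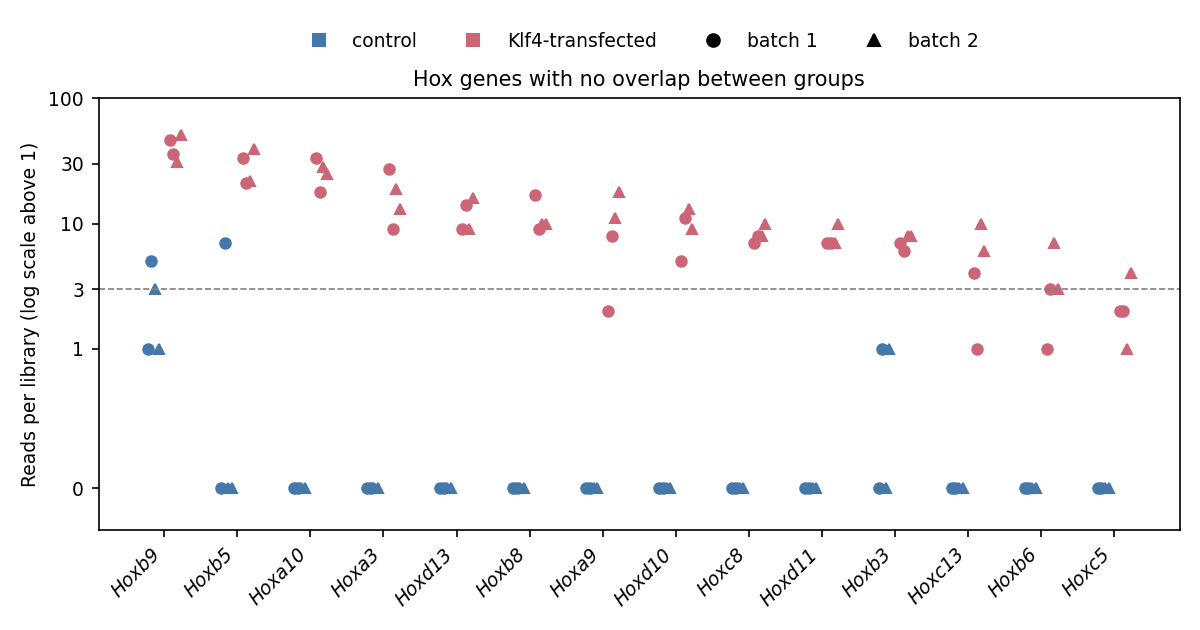
Reads per library (vertical axis, log scale above 1) of the 14 Hox genes whose groups did not overlap, with control libraries in blue, Klf4 libraries in red, circles for batch 1 and triangles for batch 2, and a dashed line at 3 reads. From Hoxb9 to Hoxc5 the Klf4 libraries fall from 31 to 51 reads to 1 to 4 reads, while 11 of the 14 genes stay at 0 in all control libraries.

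The HoxA cluster (chromosome 6, 52155590 to 52260880) held 3 reads in control and 263 in Klf4 libraries. Hoxa10 (ENSMUSG00000000938, 52231197 to 52240854, minus strand), a posterior gene needed for the lumbar spine and the uterus, had no read in any control library and 33, 18, 28 and 25 reads in Klf4 libraries. Its level in Klf4 cells was 0.51 ± 0.102 CPM (SD, n = 4), at least 33.1-fold higher than the floor. It passed the threshold in edgeR (adjusted p 3.12e-07), and its fitted log2 fold change of 7.67 depends on the prior count and is no measure of size. Hoxa3 (52169062 to 52213336, minus strand), which is needed for the thymus and parathyroid glands, also had no control read and had 27, 9, 19 and 13 reads in Klf4 libraries, at least 21.7-fold higher than the floor. Hoxa9, a gene of blood progenitors and leukaemias, had 2, 8, 11 and 18 reads in Klf4 libraries and none in control. Its 2 batch 1 libraries were both below its 2 batch 2 libraries, and its pooled reads were at least 12.4-fold higher than the floor.

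Between these well-read genes stood others with few reads. Hoxa7 had 0, 3, 0 and 0 reads in control libraries and 10, 3, 3 and 8 in Klf4 libraries, so that the groups overlapped. Hoxa2, Hoxa4, Hoxa5, Hoxa6 and Hoxa11 had between 1 and 8 pooled reads after Klf4 and none in control. Hoxa13, at the 5′ end, had no read in any library.

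In the HoxD cluster (chromosome 2, 74668310 to 74765142) no control library held a read, and the Klf4 libraries held 26, 36, 39 and 41. Together these reads came to at least 45.2-fold higher than the floor. The reads came mainly from the 5′ end, whose genes pattern the limbs and digits. Hoxd13 (74668310 to 74671599, plus strand), a gene of digit formation, had 9, 14, 9 and 16 reads in Klf4 libraries or at least 15.3-fold higher than the floor. Hoxd10 had 5, 11, 13 and 9 reads, and Hoxd11, which acts with Hoxa11 in the forearm, had 7, 7, 7 and 10. Between them and Hoxd13 lies Hoxd12, with 1 read in a single Klf4 library. Hoxd9 had 0, 2, 7 and 3 reads. Hoxd8 had none in any library, and the 3′ genes Hoxd4, Hoxd3 and Hoxd1 had 7, 4 and 1 pooled reads. Hoxd3 and Hoxd4 share 62.8% and 52.3% of their exonic bases with other annotated genes, each other among them. Their low counts, and the contrast with the 5′ end, are uncertain to that extent.

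The HoxC cluster (chromosome 15, 102921103 to 103036852) was the least read, with 3 reads in control and 92 in Klf4 libraries, 10.4% of the Hox reads of that group. Hoxc8, a gene of the thoracic spine and of brachial motor neurons, had no control read and 7, 8, 8 and 10 reads in Klf4 libraries, with little spread between them (0.163 ± 0.0243 CPM, SD, n = 4). Pooled, it lay at least 10.5-fold higher than the floor. Hoxc13, which is known for regulating keratin genes of hair and nail, had 4, 1, 10 and 6 reads against none in control. Hoxc9 had 3, 0, 0 and 0 reads in control and 4, 1, 8 and 0 in Klf4 libraries, and its groups overlapped. Hoxc5 separated on only 2, 2, 1 and 4 reads. The other 5 genes, Hoxc4, Hoxc6, Hoxc10, Hoxc11 and Hoxc12, had between 2 and 5 pooled reads.

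**Figure D3:**
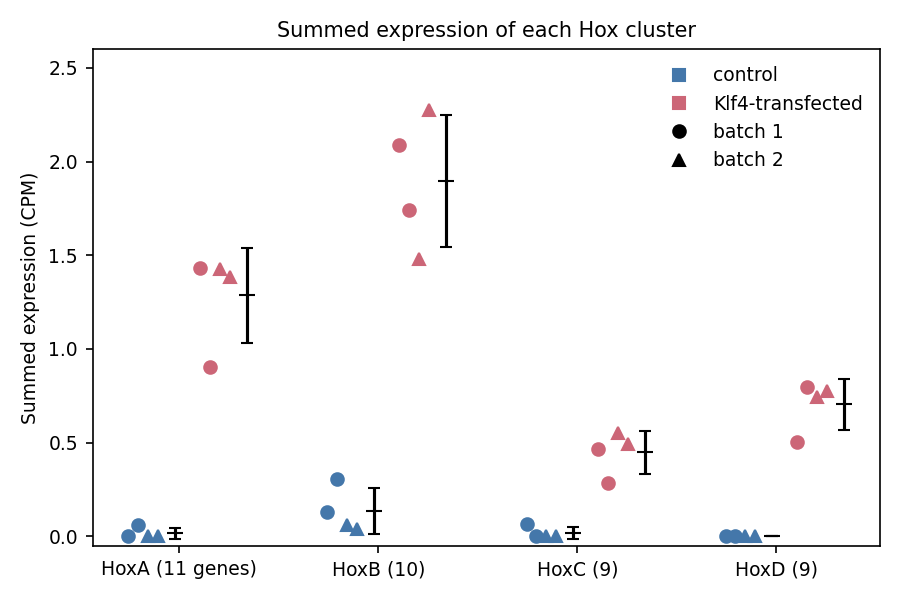
Summed level of each cluster in CPM per library, with control in blue, Klf4 in red, circles for batch 1, triangles for batch 2, and black bars for mean ± SD (n = 4). The Klf4 libraries lie above the control libraries in every cluster, highest in HoxB at 1.48 to 2.27 CPM, and Klf4 replicate 2 lies below the others in HoxA and HoxC.

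By body region, the posterior genes (paralog groups 9 to 13, 16 genes) held 491 of the 882 reads in Klf4 libraries (55.7%), the central genes (groups 4 to 8, 15 genes) 271 and the anterior genes (groups 1 to 3, 8 genes) 120. All 3 regions were read in Klf4 cells, and 7, 5 and 2 of their genes separated. Of the paralog groups, group 9 had most reads, 228, followed by group 10 with 144 and group 5 with 132. Group 12 had 3 reads over its 2 genes. The reads were unevenly spread: Hoxb9, Hoxb5, Hoxa10 and Hoxa3 together made up 51.1% of them. Of the 39 genes, 13 had at most 3 pooled reads in the Klf4 group, which is within the limit that a count of 0 allows.

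Per kilobase of exon, and averaged over the Klf4 libraries, Hoxb9 reached 0.315 ± 0.0634 CPM per kb (SD, n = 4), Hoxb5 0.203 ± 0.0538 and Hoxa10 0.156 ± 0.031. Hoxb5 and Hoxa10 did not differ beyond this spread. Hoxd10 (0.104 ± 0.0391), Hoxd13 (0.0964 ± 0.0311) and Hoxb8 (0.086 ± 0.0259) followed and overlapped with each other. These are low levels. Among the 31620 genes with a read in Klf4 libraries, Hoxb9 stood at the 48.7th percentile on this scale, while the homeodomain genes Meis2 and Pdx1 of the same cells stood at 2.90 and 280.1 CPM per kb.

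Only Hoxb9, Hoxb5 and Hoxa10 passed the count filter of the fit over all genes, which asks for about 10 reads in 4 libraries. They did so through the Klf4 libraries alone, so the fact that each of them was called is no evidence about the family. With a minimum of 5 reads, a setting chosen after the data had been seen, 9 Hox genes were tested and called higher. The share of all genes called higher was then 19.4%. The added genes had at most 1 read in any control library and also passed the filter through the Klf4 libraries, so that this count was fixed by the filter and is no support. It added Hoxa3, Hoxd13, Hoxb8, Hoxc8, Hoxd11 and Hoxb3, with edgeR adjusted p-values from 7.65e-06 (Hoxa3) to 0.00138 (Hoxb3). With no filter, 35 Hox genes entered the fit and 14 were called higher, where 12.7% of all genes were. Of the 35, 28 had no control read and entered through the Klf4 libraries alone. This count therefore cannot be weighed against that share either. Hoxa7 and Hoxb6 were among these 14 with edgeR adjusted p-values of 0.0391 and 0.0499, and were lost with the replicate block (0.109 and 0.117) and in DESeq2 (0.0596 and 0.059). P-values of the unfiltered fit were far smaller for the same gene (9.79e-19 for Hoxa10, against 3.12e-07), so they are given only to show which genes were called. No Hox gene was called lower in any of these fits, where 9.15% of all genes were with no filter, 8.61% with no filter and the replicate block, and 7.48% in DESeq2 with no filter. With no control read for 32 of the 39 genes, and at most 10 pooled control reads for any, a lower call was hardly possible. The absence of lower calls was thus close to fixed by the control counts and is no support. Hoxb7, with fewer reads after Klf4, had an edgeR adjusted p of 0.979 with no filter.

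Other genes that were silent in control cells were set beside the Hox genes. Olfactory, vomeronasal and trace amine receptor genes gave 72, 83, 62 and 49 reads in control and 117, 114, 80 and 109 in Klf4 libraries, over 1426 genes with at most 3 reads in every control library. The Klf4 sums were higher, apart from an overlap between the highest control and the lowest Klf4 library, and only 2 of these 1426 genes separated, 0.14%. Other families of developmental transcription factors (Dlx, Lhx, Pax, Tbx, Sox, Gata, Fox, Irx and Msx among them) gave 14, 14, 18 and 8 reads in control and 611, 537, 745 and 876 in Klf4 libraries, over 48 genes with the same limit. Of these 48, 22 separated (45.8%), a larger share than that of the Hox genes. Both sets were chosen after the Hox values had been seen. Of the 46 other genes annotated within the 4 clusters, 34 had no read in any library, among them all 7 microRNA genes. The processed pseudogene Gm11539, inside HoxB, was the only one with control reads, 57, 57, 66 and 46, and had 38, 37, 63 and 78 in Klf4 libraries, with overlapping groups. It thus held more control reads than all Hox genes together. The long non-coding RNA gene Haglr, beside Hoxd1, was the only one of the 46 that separated, with 0 reads in control and 2, 5, 3 and 2 in Klf4 libraries. Hotair, in HoxC, had none in control and 3, 0, 4 and 3.

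**Figure D4:**
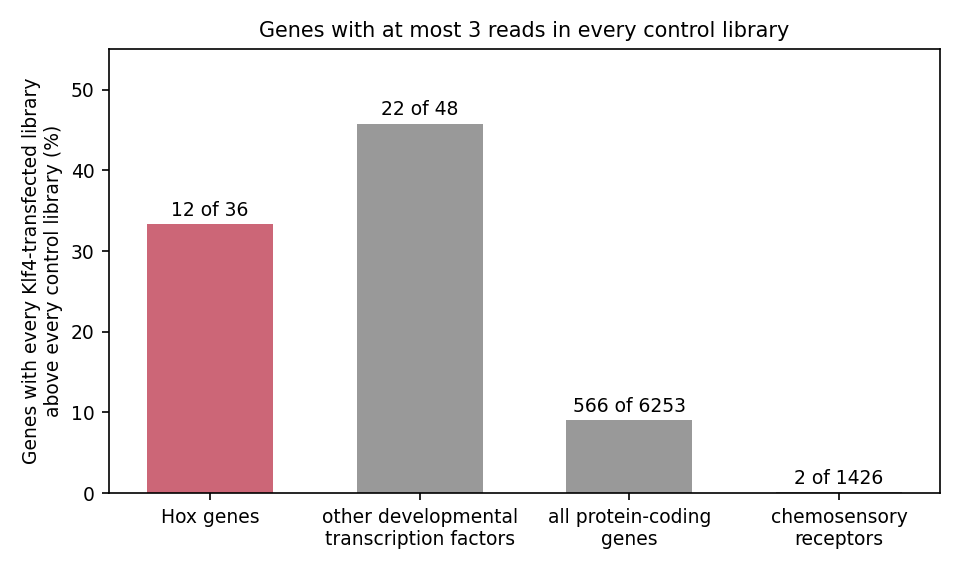
Share of genes (vertical axis, percent) in which every Klf4 library lay above every control library, among genes with at most 3 reads in every control library, for the Hox genes and 3 other sets. The Hox genes stand at 33.3%, other developmental transcription factors at 45.8%, all protein-coding genes at 9.05% and chemosensory receptors at 0.14%.

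Exons of 16 Hox genes overlap another annotated gene, and without a stated strand setting their reads cannot be assigned with certainty. Of the 14 separated genes, 7 have no such overlap, among them Hoxb9, Hoxa10, Hoxd13, Hoxb8 and Hoxc8. Hoxb3 shares 52.9% of its exonic bases with the antisense gene Hoxb3os, and Hoxa3 shares 27.1% with other transcripts. Among the genes that did not separate, Hoxd3 shares 62.8% and Hoxd4 52.3%, so comparisons of anterior with posterior genes carry the same limit. Hoxd10 and Hoxd11 both overlap Gm28309, and Hoxc5 overlaps Hoxc10. Hoxb5 shares 3.59%. Stretches of 50 bases shared with genes elsewhere in the genome made up at least 1% of the transcript sequence in only 1 Hox gene, Hoxc9 (1.27%).

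Genes next to the clusters came from a list. Evx1, a homeobox gene 52.6 kb beyond HoxA, had no read in control and 8, 6, 8 and 6 in Klf4 libraries. Evx2, 8.75 kb beyond HoxD, had none and 2, 1, 3 and 5. Of 13 listed neighbours that were tested, none was higher, also at an unadjusted p under 0.05 and in DESeq2, and 4 were lower, where 36.6% of all genes changed. The largest of these changes were Calcoco1 (198.9 kb from HoxC, log2 fold change -0.22, SE 0.03, adjusted p 4.25e-06 in edgeR), Skap1 (96.3 kb from HoxB, -0.17) and Snx10 (564.9 kb from HoxA, -0.14). Snx10 was not called with the replicate block (adjusted p 0.0696) or in DESeq2 (adjusted p 0.0552). Skap1 and Snx10 were each lost when any of 4 single libraries was left out: control replicates 2 and 3 or Klf4 replicates 2 and 4 for Skap1, and control replicates 2 and 4 or Klf4 replicates 2 and 4 for Snx10. The other 9 did not pass. Of these Ttll6, the nearest tested neighbour (28.9 kb from HoxB), had the largest value of the list, 1.03 on the log2 scale (SE 0.52, adjusted p 0.133 in edgeR), on 10, 9, 4 and 2 reads in control and 15, 10, 4 and 23 in Klf4 libraries, which overlapped. The remaining 8, Skap2, Hibadh, Mtx2, Lnpk, Smug1, Snx11, Atp5g2 and Atp5g3, had log2 fold changes from -0.09 to 0.02. Without the batch term only Calcoco1 of the 4 was still called.

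The partners through which Hox proteins bind DNA were already present and did not pass the threshold. These are the TALE homeodomain proteins of the Pbx, Meis and Pknox families. None of the 9 genes was called in edgeR or DESeq2, and 1 had an unadjusted p under 0.05 in edgeR (median log2 fold change 0.00, range -0.05 to 0.09), with a summed level of 430.1 to 453.6 CPM over control and 427.2 to 451.6 CPM over Klf4 libraries. Among the ParaHox genes, Cdx1 had no read in control and 6, 9, 5 and 18 in Klf4 libraries, below the filter. Of the 3 tested, Gsx1 rose (1.13 on the log2 scale, SE 0.42, adjusted p 0.0377 in edgeR), Cdx2, an intestinal factor that acts upstream of central Hox genes, rose slightly (0.32, SE 0.11, adjusted p 0.0199), and Pdx1 fell by 0.12 (SE 0.03, adjusted p 0.00367). The Pdx1 value was -0.04 in batch 1 and -0.18 in batch 2, with an edgeR interaction adjusted p of 0.12, and 0.0401 with no filter. None of the 3 was called without the batch term, where the adjusted p of Pdx1 was 0.0576, of Gsx1 0.108 and of Cdx2 0.324. Gsx1 was not called with the replicate block (adjusted p 0.0774), and not without control replicate 4 or Klf4 replicate 2 or 4. Cdx2 was not called without control replicate 1 or 4 or Klf4 replicate 1 or 2.

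Genes of the complexes that silence or maintain Hox clusters moved by small amounts in both directions. Of 12 PRC2 genes, the complex that methylates histone H3 at lysine 27, 4 were higher, 4 lower and 4 did not pass. Its catalytic subunit Ezh2 was higher by 0.19 (SE 0.03, edgeR adjusted p 3.8e-05) and its core subunit Suz12 was lower, at -0.20 (SE 0.03, adjusted p 4.04e-05). Phf19 had the largest value, 0.80 (SE 0.27, adjusted p 0.0231), on 14 to 38 reads in control and 43 to 59 in Klf4 libraries, and was not called without control replicate 4 or Klf4 replicate 2, 3 or 4. Without control replicate 3 or Klf4 replicate 4, the PRC2 subunit gene Rbbp7 was also no longer called. The PRC2 cofactor Epop was higher by 0.29 (SE 0.06). Of 19 PRC1 genes, 4 were higher and 5 lower, led by Pcgf5 (0.48, SE 0.05), Phc3 (-0.34, SE 0.04) and Cbx2 (0.22, SE 0.05). Of 13 genes of the Trithorax complexes and the H3K27 demethylases, none was higher (1 at an unadjusted p under 0.05 in edgeR, none in DESeq2) and 6 were lower. The methyltransferase genes Kmt2d (-0.22, SE 0.07), Kmt2b (-0.21, SE 0.03) and Kmt2a (-0.16, SE 0.06) led them. Kmt2d was not called in DESeq2 (adjusted p 0.23) or without Klf4 replicate 1, and its log2 value fell by 0.39 in batch 1 against 0.04 in batch 2. Kmt2a, by 0.30 and 0.03, was lost in DESeq2 (adjusted p 0.293) and without control replicate 2 or 3 or Klf4 replicate 1, 2 or 4. Among the 6, Wdr5 was lost without Klf4 replicate 2, and Ash2l with the replicate block (adjusted p 0.0598) and without control replicate 4 or Klf4 replicate 2, 3 or 4. The demethylase genes Kdm6a and Kdm6b did not pass, at 0.00 and 0.02. Without the batch term Kmt2b was the only one of the 6 Trithorax genes still called, and of the genes named above Rbbp7 and Phf19 were lost. Changed genes thus numbered 8 of 12, 9 of 19 and 6 of 13, beside 36.6% of all genes tested (21.1% higher and 15.5% lower).

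**Figure D5:**
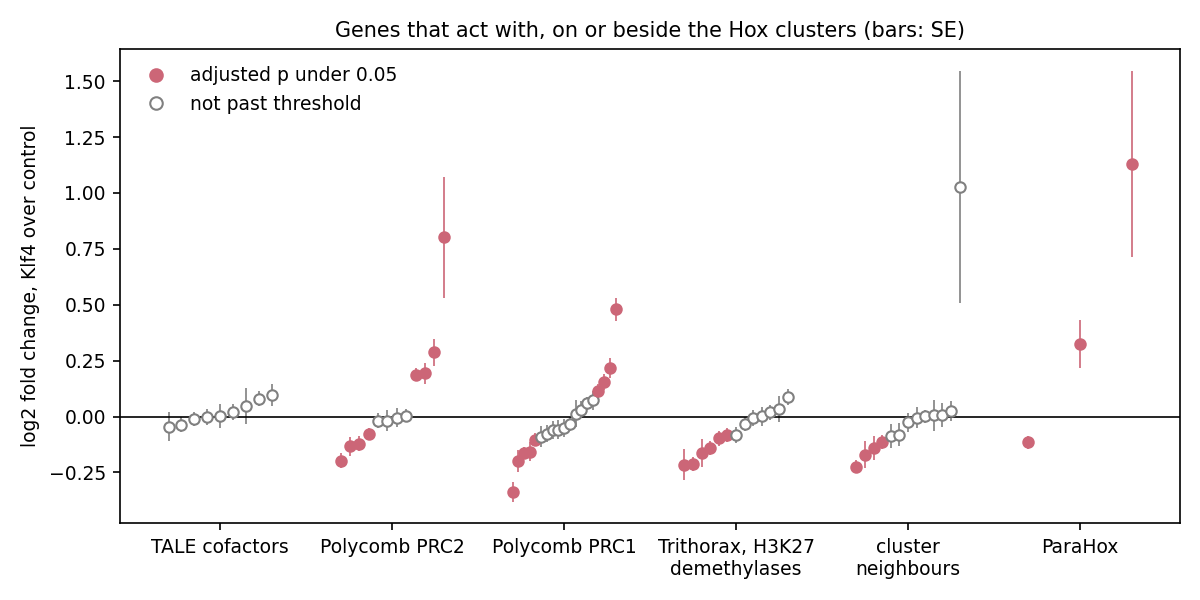
Log2 fold change of Klf4 over control (vertical axis, bars for SE) of the tested genes in 6 lists, filled where the adjusted p was under 0.05. The TALE cofactors lie between -0.05 and 0.09 and none is filled, and most genes of the Polycomb, Trithorax and neighbour lists lie within 0.35 of 0.

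Since fibroblasts and other stromal cells express many Hox genes, markers of other cell types were set beside these results. The sum of 8 fibroblast markers spanned 4.41 to 5.65 CPM over control and 24.1 to 30.8 CPM over Klf4 libraries, and 4 of the 5 tested were higher, beside 21.1% of all genes. Most of this came from Dcn, with 1, 3, 5 and 0 reads in control and 735, 655, 1081 and 1124 in Klf4 libraries. Pdgfra had 0, 3, 0 and 2 reads and then 46, 36, 42 and 44. Dcn and Pdgfra passed the count filter through the Klf4 libraries alone, so their calls were close to fixed by the filter. The count of 4 among 5 therefore cannot be weighed against the share of all genes. Col1a1 (106, 119, 75 and 69 reads, then 229, 196, 179 and 197) and Thy1 (log2 fold change 0.93, SE 0.14) were the other fibroblast genes called higher in edgeR, with adjusted p-values of 3.51e-07 and 1.17e-05. Pdgfrb had 0, 5, 0 and 2 reads in control and 13, 3, 19 and 7 in Klf4 libraries. Lum had no read in any library, and Col3a1 had 2, 0, 0 and 0 reads in control and 3, 0, 0 and 0 in Klf4 libraries. Col1a2 did not pass the threshold (log2 fold change 0.09, edgeR adjusted p 0.734). Of 5 ductal markers, 3 were tested, of which Krt19 (log2 fold change 3.76) and Muc1 (0.53) were higher, Muc1 being lost when any library but control replicate 3 or Klf4 replicate 4 was left out, while immune and acinar lists had no called gene among the 1 tested in each. The summed ductal level was 1.47 to 2.07 CPM over control and 5.01 to 6.12 CPM over Klf4 libraries, and the endothelial one 4.1 to 4.48 against 5 to 5.28. The immune list summed to 5.86 to 6.37 against 5.7 to 7.24 CPM and the acinar list to 1.42 to 3.91 against 1.68 to 3.3 CPM, with overlapping groups. Of the 3 endothelial genes tested Cdh5 was called higher (21.1% of all genes were), from 0 reads in each control library to between 14 and 28. Cdh5 too passed the filter through the Klf4 libraries alone, so its call was close to fixed by the filter. The part of any such cells in the Hox reads was not tested.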

How the data were processed

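The values are raw counts of reads per gene for 8 libraries, deposited by the authors in 1 table. Per the submitters' processing notes the tools named are FastQC, STAR, featureCounts and edgeR with the build mm10; versions, annotation and strand setting are not given in the sources used here. Gene symbols and positions were taken from GENCODE M21. The members and gene lists were chosen with earlier results of these data known.

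Counts were fitted with edgeR 4.0.16 (TMM factors, filterByExpr, quasi-likelihood test, batch as a covariate) in R 4.3.3, with Benjamini-Hochberg adjustment over all genes tested and a threshold of 0.05. DESeq2 1.42.0 was an alternative. The edgeR fit was tested on simulated data, with changes planted only in genes that passed the count filter and no simulated batch difference. It did not cover genes below the filter, as most Hox genes were. For Hox genes under the filter, raw counts, CPM and exact 95% Clopper-Pearson intervals of pooled counts are given; intervals and floors cover counting error only. A floor is 3 counts over the 4 control libraries. The Hox members enter every count and sum, 1 of them and 1 cofactor gene are not reported here by name, and from each list up to 3 called genes of largest absolute log2 fold change are named; further list genes were named after their values were seen. Libraries of the same number deviated together (correlations 0.479 to 0.638 over 10485 genes), which met the criterion for adding these numbers to the model as a replicate block. With batch means removed the correlations were -0.0499 in batch 1 and 0.0865 in batch 2, so these numbers show a shared batch and no pairing beyond it.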

Additional observations from a re-analysis of the deposited data

Results flagged for a closer look

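In 12 checks of groups of 4 libraries, 2 showed a library far from the other 3, where chance gives 0.6. For Hoxb5, control replicate 2 stood at 0.144 CPM and the other control libraries at 0. Any single library with reads would be flagged in such a group, so the chance figure does not apply to Hoxb5. For the summed HoxA cluster, Klf4 replicate 2 stood at 0.905 CPM, below the next library at 1.38 CPM.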

How the results depend on the processing

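The number of Hox genes called higher depended on the count filter: 3 in the fit reported, 9 with a minimum count of 5, 14 with no filter, and 0 with a filter at 1 CPM in 4 libraries, which left no Hox gene to test. The fit with the replicate block called 3, and 9 with a minimum count of 5 and 12 with no filter. DESeq2 with no filter also called 12. The minimum count of 5 and the combined settings were chosen after seeing the data. The number called lower was 0 in each fit, which the near absence of control reads all but fixed. Hoxa10, Hoxb9 and Hoxb5 stayed called without any single library. All of them entered the fit through the Klf4 libraries alone, so this was largely fixed by the filter and is no support. The median log2 fold change of the 3 tested Hox genes was 3.91, against 4.69 with DESeq2 and 3.49 with no filter (35 genes). With 1 library left out, and 3 or 4 genes tested, it was between 3.72 and 7.33, the highest value being that without control replicate 2. For genes with no control read the edgeR values depend on the prior count, so these medians are no firm measure of size. Over all genes, 2828 were called lower, and 1159 without the batch term. Most Hox genes had too few reads for a test at this depth.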
